A study of Homo sapiens with 18 samples.

Results

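The Iroquois genes are the 6 human genes IRX1 to IRX6, taken here by their symbols from a count table of 35025 genes, in which all 6 had a row. They encode homeodomain transcription factors of the TALE class, named for extra residues in a loop of the DNA-binding domain, and were first described as patterning genes of the fruit fly. In vertebrates they lie in 2 genomic clusters, IRXA and IRXB, and help to divide tissues such as the neural tube, the heart and the retina into regions. In the mouse, Irx1, Irx2, Irx3 and Irx5 are also found in the epithelium of the developing lung.

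The libraries were bulk RNA-seq of foregut endoderm derived in culture from human H1 embryonic stem cells, a single wild-type line, and the study asked which genes all-trans retinoic acid (RA) controls in it and how signals that induce the respiratory fate act on it. There were 6 groups of 3 libraries. At day 9 they were endoderm given RA at 2 µM for 24 h up to day 6 and then 2 µM CHIR99021, an inhibitor of GSK3 that switches on Wnt signalling, with 50 ng/mL BMP4 for 72 h; endoderm given only the RA; endoderm given only CHIR99021 and BMP4; and untreated endoderm. At day 6 they were endoderm just after the RA and untreated endoderm. Library totals ran from 5.79 M to 25.4 M counts. Levels are CPM (counts scaled by library size with TMM factors), ± is the standard deviation over 3 libraries, and a gene was called at an adjusted p below 0.05 in edgeR's quasi-likelihood test over 15531 genes. The labels do not say whether the 3 libraries of a group were separate cultures, so the tests weigh differences only against the spread between libraries, which may be technical. In these bulk libraries, fewer cells that express a gene and less RNA per cell cannot be told apart.

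Endoderm markers were detected in every group, but several of the defining ones were low at day 9 without RA. The summed level of FOXA1, FOXA2, SOX17, GATA4, GATA6, EPCAM, CDH1 and HHEX was 1405 to 1447 CPM after RA with CHIR99021 and BMP4 and 1745 to 1971 CPM after RA alone at day 9. It was 927 to 1173 CPM after CHIR99021 and BMP4 without RA and 786 to 979 CPM in untreated day 9 endoderm. At day 6 it was 1653 to 1823 CPM after RA and 903 to 993 CPM untreated. CDH1 and EPCAM, which other epithelia also express, made up most of the sum at day 9 without RA. FOXA1 had 224 CPM after RA with CHIR99021 and BMP4, 260 CPM after RA alone at day 9, 29.5 CPM after CHIR99021 and BMP4 without RA and 35.4 CPM in untreated day 9 endoderm. At day 6 it had 320 CPM after RA and 160 CPM untreated. FOXA2 had 171, 104, 18.9 and 34.1 CPM in the same 4 day 9 groups. GATA6 had 71.6, 205, 8.39 and 9.81 CPM in those groups, in the same order. The RA-only cultures of day 9 stood apart in other markers: 8 cardiac muscle genes summed to 3394 to 4702 CPM there, against 23.3 to 172 CPM in the other 5 groups, and 8 mesenchyme genes to 2283 to 3475 CPM, against 296 to 1319 CPM. COL1A1, COL1A2 and COL3A1 made up most of that mesenchyme sum. PDGFRA, of the same list, had 20.7 CPM after RA alone at day 9 and 86.0 CPM after RA at day 6. Another feature separated untreated from treated libraries, namely 69 genes (91.3% of them pseudogenes, against 4.0% of all genes at 2 CPM or more) of which every library of one kind had at least 10 times the level of any of the other kind, untreated day 6 libraries 1 and 3 left aside. Of the counts on these pseudogenes, the set that was higher in treated libraries held 93.9% to 95.6% in each treated library, at most 0.606% in untreated day 9 libraries and in untreated day 6 library 2, and 9.34% and 18.4% in untreated day 6 libraries 1 and 3. Such a difference in how the reads were made or assigned, called read kind here, coincides with the contrast of treated against untreated, so its part in those comparisons and the treatment cannot be told apart. The 3 comparisons among treated groups and the comparison of the 2 untreated groups are much less exposed to it.

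In the deposited coordinates on GRCh38, the IRXA cluster spans 1.72 Mb of chromosome 5 and holds IRX4 (chr5:1877427-1887179, minus strand), IRX2 (chr5:2745845-2751677, minus strand) and IRX1 (chr5:3595832-3601403, plus strand). The IRXB cluster spans 1.05 Mb of chromosome 16 and holds IRX3 (chr16:54283304-54286787, minus strand), IRX5 (chr16:54930865-54934483, plus strand) and IRX6 (chr16:55324203-55330756, plus strand). The genes are far apart within each cluster, with gaps of 859 kb from IRX4 to IRX2, 844 kb from IRX2 to IRX1, 644 kb from IRX3 to IRX5 and 390 kb from IRX5 to IRX6.

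The stretch that makes these genes a family is the homeobox, which codes for the DNA-binding homeodomain. It is shown for the 4 well-expressed members because its near-identity bears on how reads could be assigned among them. The sequences are from the longest protein-coding GENCODE 29 transcript of each gene, 189 bases, 5′ to 3′. Capitals mark the 27 positions at which the 4 genes do not all have the same base, and the other 162 positions are shared by all 4.
IRX1: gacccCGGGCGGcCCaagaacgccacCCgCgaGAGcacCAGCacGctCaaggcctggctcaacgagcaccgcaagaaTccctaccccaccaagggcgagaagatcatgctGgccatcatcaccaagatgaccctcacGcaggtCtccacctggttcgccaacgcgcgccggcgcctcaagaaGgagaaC
IRX2: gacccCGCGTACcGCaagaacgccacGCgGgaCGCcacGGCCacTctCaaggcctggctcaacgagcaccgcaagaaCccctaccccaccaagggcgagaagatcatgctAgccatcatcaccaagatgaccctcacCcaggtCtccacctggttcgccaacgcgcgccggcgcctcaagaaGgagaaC
IRX3: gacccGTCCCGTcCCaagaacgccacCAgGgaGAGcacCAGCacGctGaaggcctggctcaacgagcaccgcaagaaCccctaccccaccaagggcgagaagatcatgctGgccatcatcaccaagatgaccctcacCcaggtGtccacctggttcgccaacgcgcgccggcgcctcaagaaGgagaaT
IRX5: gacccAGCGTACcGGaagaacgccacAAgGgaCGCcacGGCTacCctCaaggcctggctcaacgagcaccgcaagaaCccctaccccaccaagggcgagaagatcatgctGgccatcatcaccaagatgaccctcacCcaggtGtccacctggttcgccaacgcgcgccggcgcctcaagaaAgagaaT

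The most alike homeoboxes joined genes of different clusters: IRX2 and IRX5 shared 94.7% of bases and IRX1 and IRX3 93.7%, against 91.0% for IRX1 and IRX2 within IRXA and 89.9% for IRX3 and IRX5 within IRXB. The longest identical run between whole transcripts was 134 bases, between IRX3 and IRX5, and it was 54 to 65 bases for the other 5 pairs of these 4 genes. The sources used here do not give the read length or how reads that match several genes were counted, so the level of IRX3 and IRX5 carries the uncertainty of a short shared stretch.

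Of the 6 genes, 4 had enough counts to be tested, namely IRX1, IRX2, IRX3 and IRX5. Each was highest at day 9 in a culture that had received CHIR99021 and BMP4. For IRX2, IRX3 and IRX5 this was the culture that had also received RA, and for IRX1 the culture without RA. IRX4 and IRX6 were near the detection limit in all groups.

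**Figure D1:**
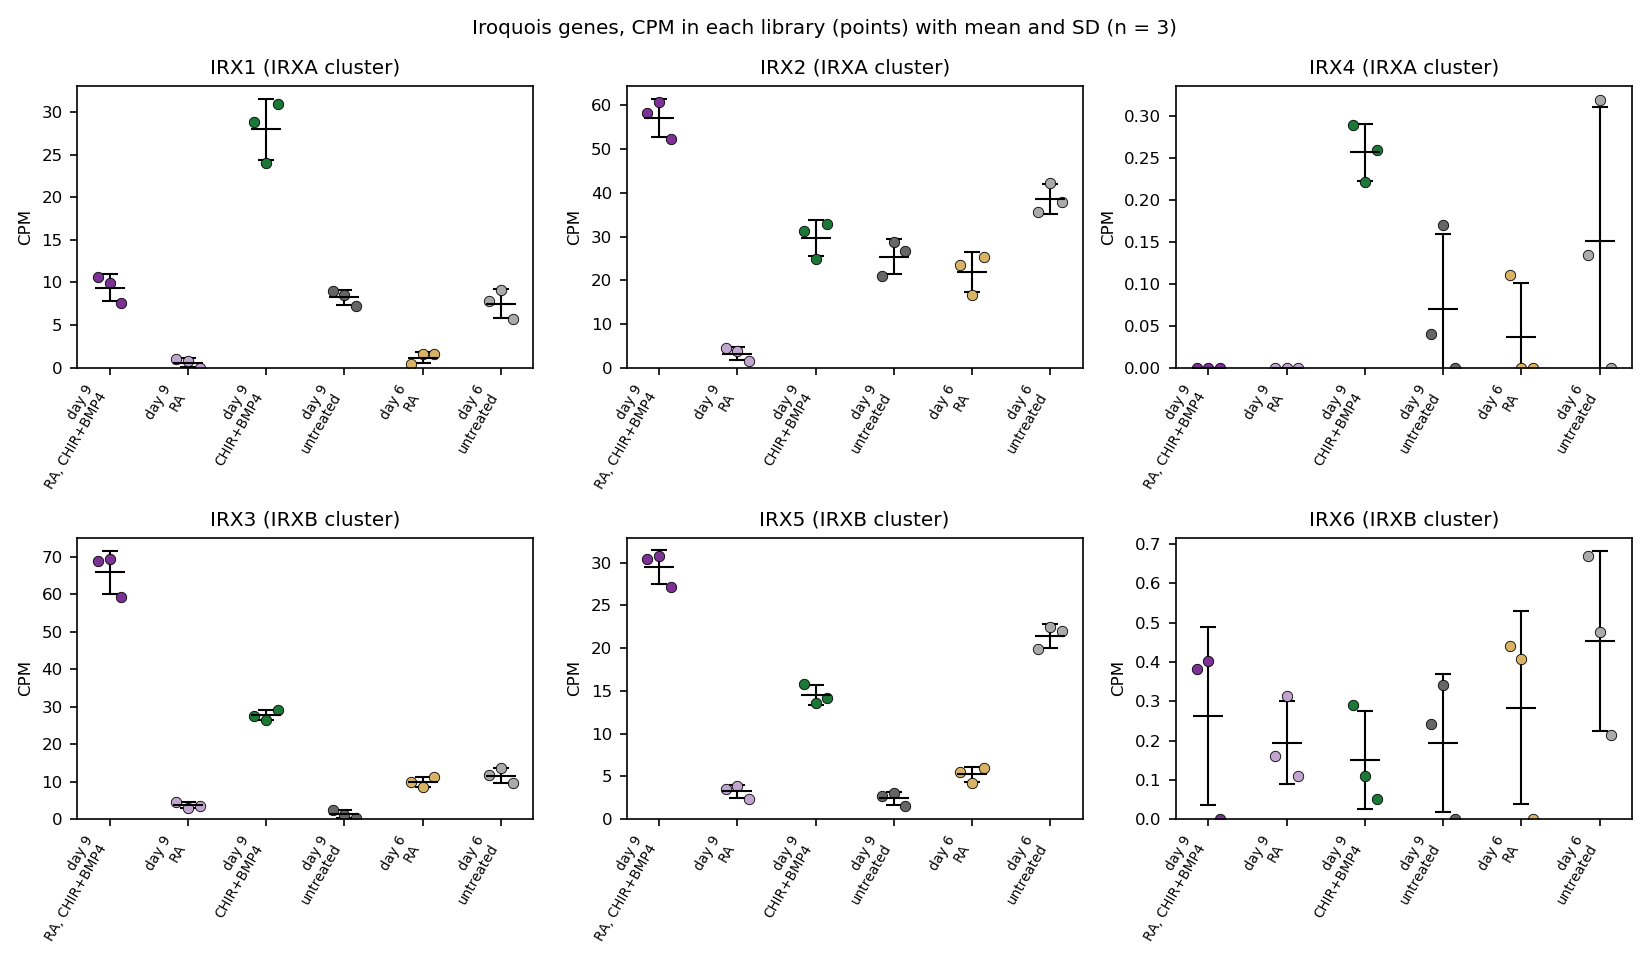
Level of each Iroquois gene in CPM (linear axis, a separate scale per gene) in the 3 libraries of each of 6 groups; points are libraries, the wide bar is the mean and the whiskers are the standard deviation, which the lower axis limit of 0 clips for IRX4. IRX3 stood at 59.3 to 69.4 CPM after RA with CHIR99021 and BMP4, above all other libraries, and IRX1 at 24.1 to 30.9 CPM after CHIR99021 and BMP4 without RA, above all other libraries.

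IRX2, found in lung epithelium of the mouse embryo, had 58.2, 60.8 and 52.4 CPM after RA with CHIR99021 and BMP4, against 4.49, 3.76 and 1.44 CPM after RA alone at day 9. It had 31.2, 24.9 and 32.8 CPM after CHIR99021 and BMP4 without RA and 20.9, 28.8 and 26.6 CPM in untreated day 9 endoderm, and these libraries overlapped. At day 6 it had 23.5, 16.7 and 25.3 CPM after RA, against 35.5, 42.2 and 38.0 CPM untreated. The means placed RA with CHIR99021 and BMP4 first (57.1 ± 4.30 CPM), then untreated day 6 (38.6 ± 3.36), CHIR99021 and BMP4 without RA (29.6 ± 4.15), untreated day 9 (25.4 ± 4.07), RA at day 6 (21.8 ± 4.57) and RA alone at day 9 (3.23 ± 1.59). Of the 5 steps down this order the first was called (adjusted p = 0.0071) and the last was called (adjusted p = 4e-08), and the 3 between them were not (adjusted p = 0.083, 0.23 and 0.38).

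IRX1, the other expressed IRXA gene, had 10.6, 9.94 and 7.58 CPM after RA with CHIR99021 and BMP4, against 0.963, 0.835 and 0 CPM after RA alone at day 9. It had 28.9, 24.1 and 30.9 CPM after CHIR99021 and BMP4 without RA, against 8.96, 8.51 and 7.26 CPM in untreated day 9 endoderm. At day 6 it had 0.441, 1.55 and 1.56 CPM after RA, against 7.78, 9.07 and 5.69 CPM untreated. The level after CHIR99021 and BMP4 without RA was thus apart from the rest (28.0 ± 3.53 CPM, adjusted p = 6.1e-06 against the next group). RA with CHIR99021 and BMP4 (9.38 ± 1.59), untreated day 9 (8.24 ± 0.883) and untreated day 6 (7.51 ± 1.71) formed a middle level whose neighbours did not pass the test (adjusted p = 0.52 and 0.59). Both RA-only groups lay below it (adjusted p = 5.3e-06), with 1.18 ± 0.643 CPM at day 6 and 0.599 ± 0.523 CPM at day 9, 2 levels that did not pass the test against each other (adjusted p = 0.14).

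IRX3, which in the chick neural tube marks a progenitor domain and in the mouse heart is needed for fast conduction, had 69.0, 69.4 and 59.3 CPM after RA with CHIR99021 and BMP4, against 4.65, 3.03 and 3.44 CPM after RA alone at day 9. It had 27.6, 26.5 and 29.1 CPM after CHIR99021 and BMP4 without RA, against 2.45, 1.02 and 0.346 CPM in untreated day 9 endoderm. At day 6 the 2 groups overlapped, with 9.82, 8.58 and 11.3 CPM after RA and 11.8, 13.5 and 9.55 CPM untreated. In the order of means, RA with CHIR99021 and BMP4 (65.9 ± 5.73 CPM) stood above CHIR99021 and BMP4 without RA (27.7 ± 1.29, adjusted p = 1e-06), and this above untreated day 6 (11.6 ± 1.99, adjusted p = 4.7e-06). Untreated day 6 and RA at day 6 (9.91 ± 1.37) did not pass the test against each other (adjusted p = 0.37). RA alone at day 9 (3.71 ± 0.844) was lower than RA at day 6 (adjusted p = 4.3e-05), and untreated day 9 was lowest (1.27 ± 1.08, adjusted p = 0.0095 against RA alone at day 9).

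IRX5, the partner of IRX3 in the IRXB cluster and in the mouse a regulator of cardiac repolarisation, had 30.5, 30.7 and 27.2 CPM after RA with CHIR99021 and BMP4, against 3.53, 3.86 and 2.33 CPM after RA alone at day 9. It had 15.8, 13.6 and 14.1 CPM after CHIR99021 and BMP4 without RA, against 2.65, 3.06 and 1.56 CPM in untreated day 9 endoderm. At day 6 it had 5.52, 4.25 and 5.95 CPM after RA, against 19.8, 22.4 and 22.0 CPM untreated. IRX5 therefore differed from IRX3 in its second place, which was untreated day 6 endoderm (21.4 ± 1.39 CPM), below RA with CHIR99021 and BMP4 (29.4 ± 1.99, adjusted p = 0.0041) and above CHIR99021 and BMP4 without RA (14.5 ± 1.12, adjusted p = 0.0013). RA at day 6 followed (5.24 ± 0.882), above RA alone at day 9 (3.24 ± 0.805, adjusted p = 0.0083), and the last step, to untreated day 9 (2.42 ± 0.780), was not called (adjusted p = 0.18).

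IRX4, a gene of the ventricular chamber in the chick and mouse heart, had 0 counts in all 3 libraries after RA with CHIR99021 and BMP4 and 0 in all 3 after RA alone at day 9. It had 4, 2 and 5 counts after CHIR99021 and BMP4 without RA, 1, 1 and 0 in untreated day 9 endoderm, 1, 0 and 0 after RA at day 6, and 1, 2 and 0 in untreated day 6 endoderm. All libraries with CHIR99021 and BMP4 but no RA lay above all 3 with RA before them, with 0 of 35.9 M counts after RA (exact 95% Poisson interval 0 to 0.103 counts per M, and 0.0836 by a limit of 3 counts) and 11 of 41.1 M without (0.268 counts per M, interval 0.134 to 0.479). An exact two-sided permutation test gave p = 0.1, the smallest value that 3 against 3 libraries allow. Intervals and limits of this kind cover counting error only.

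IRX6, known from retinal bipolar cells of the mouse, summed to 12 counts after RA with CHIR99021 and BMP4, 5 after RA alone, 6 after CHIR99021 and BMP4 without RA and 8 in untreated day 9 endoderm, with 9 after RA and 10 untreated at day 6. The highest library, untreated day 6 library 1, had 5 counts (0.670 CPM), and 3 libraries had no count, so that all groups overlapped. Exact permutation tests of its 7 comparisons gave p of 0.3 to 1, so no difference in IRX6 was detectable at this depth.

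CHIR99021 and BMP4 after RA, set against RA alone, compared groups of 1 read kind and raised all 4 tested genes, where 64.4% of all tested genes were called, 32.1% higher and 32.3% lower. IRX2 was 18.3-fold higher (log2 change 4.19, SE 0.24, adjusted p = 3.3e-11) and IRX3 18.3-fold higher (4.19, SE 0.21, adjusted p = 4.1e-13). IRX1 was 16.6-fold higher (4.05, SE 0.40, adjusted p = 2.6e-08), a value that became 3.42 on the log2 scale without library 3 of RA alone, which had no IRX1 count. IRX5 was 9.13-fold higher (3.19, SE 0.17, adjusted p = 1.3e-13). In the same comparison all 8 cardiac muscle markers fell, and the summed cardiac and mesenchyme marker levels were 23.3 to 31.3 and 296 to 334 CPM after RA with CHIR99021 and BMP4, against 3394 to 4702 and 2283 to 3475 CPM after RA alone. The mesenchyme list was mixed, with 4 of 8 genes called lower and 3 called higher. Its sum followed the collagen genes, with COL1A1 at 100 against 1606 CPM, whereas PDGFRA had 54.5 against 20.7 CPM. The part of these marker changes in the rise of the Iroquois genes was not tested.

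RA before CHIR99021 and BMP4, set against CHIR99021 and BMP4 without RA, also compared groups of 1 read kind and moved the genes apart: 3 of 4 rose and 1 fell, where 43.3% of tested genes were called, 21.2% higher and 22.1% lower. IRX3 was 2.38-fold higher (log2 change 1.25, SE 0.15, adjusted p = 1e-06), IRX5 2.03-fold higher (1.02, SE 0.13, adjusted p = 8.5e-07) and IRX2 1.91-fold higher (0.94, SE 0.16, adjusted p = 0.00016). IRX1 was 2.93-fold lower (-1.55, SE 0.21, adjusted p = 6.1e-06). On deposited TPM, tested with limma on log2(TPM + 0.1), the fall of IRX1 was not called (-1.49, adjusted p = 0.24). The same test on log2(TPM + 1) called it (-1.46, adjusted p = 0.012). The 8 cardiac markers were low on both sides of this comparison, at 23.3 to 31.3 CPM after RA with CHIR99021 and BMP4 and 26.1 to 39.9 CPM after CHIR99021 and BMP4 without RA. Markers of surface and placodal ectoderm did move with it: 8 such genes summed to 42.3 to 50.4 CPM after RA with CHIR99021 and BMP4 and 187 to 208 CPM after CHIR99021 and BMP4 without RA. All 5 tested ones fell, and KRT5 had no count in either group. Endoderm markers moved the other way: 6 of 8 rose and 1 fell (median log2 change 1.85, against -0.01 over all genes). FOXA1 was at 2.92 (adjusted p = 8.2e-18) and FOXA2 at 3.25 (adjusted p = 3.2e-09). HHEX was the 1 that fell (-1.39, adjusted p = 0.0015). The part of either marker list in the fall of IRX1 or in the rises of IRX2, IRX3 and IRX5 was not tested.

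CHIR99021 and BMP4 without RA, set against untreated day 9 endoderm, raised 3 of 4 genes, where 42.8% of tested genes were called, 21% higher and 21.8% lower. IRX3 was 15.4-fold higher (log2 change 3.95, SE 0.23, adjusted p = 2.8e-11), and without library 1 of the untreated group, the one with most IRX3, the change was 5.32. IRX5 was 5.76-fold higher (2.53, SE 0.18, adjusted p = 7.2e-11) and IRX1 3.34-fold higher (1.74, SE 0.22, adjusted p = 2.5e-06). IRX2, 1.21-fold higher, was not called (0.28, SE 0.18, adjusted p = 0.23). With read kind as a covariate, which nearly coincides with the treatment here, 0 of the 4 and only 18 of all genes were called. The fitted changes were 6.42 for IRX3, 5.20 for IRX1 and 2.57 for IRX5.

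**Figure D2:**
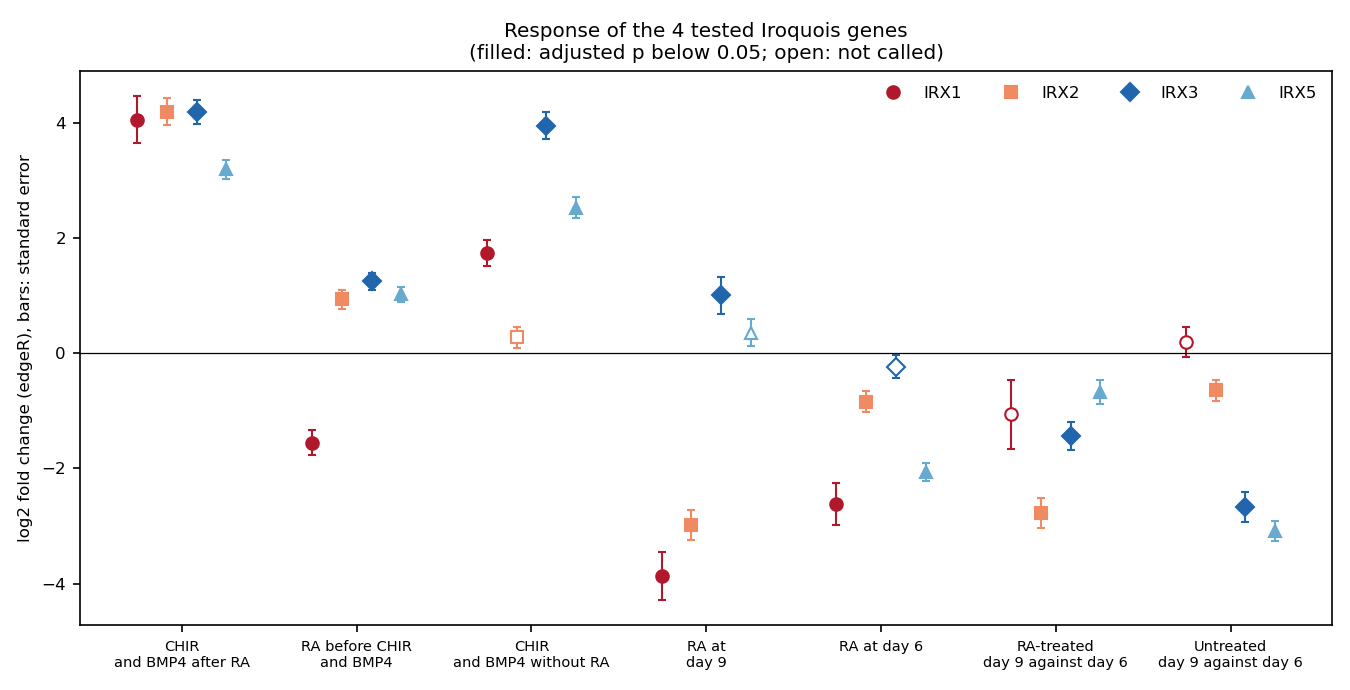
Log2 fold change (vertical axis, edgeR) of the 4 tested Iroquois genes in 7 comparisons, with standard errors as bars; filled symbols have an adjusted p below 0.05 and open symbols do not. For CHIR99021 and BMP4 after RA, all 4 genes lie between 3.19 and 4.19, and only IRX1 lies below 0, at -1.55, for RA before CHIR99021 and BMP4.

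The response to CHIR99021 and BMP4 depended on prior RA in 3 of the 4 genes by the interaction test, where 53.4% of tested genes were called, 25.5% with a positive and 27.9% with a negative value. The difference of responses, RA-treated minus RA-untreated, was 3.92 on the log2 scale for IRX2 (SE 0.31, adjusted p = 7.9e-09) and 2.31 for IRX1 (SE 0.51, adjusted p = 8e-04). The value of IRX1 was 1.68 without RA-only day 9 library 3 (adjusted p = 0.0024). With limma its call was lost on log2(TPM + 0.1) (2.90, adjusted p = 0.086) and kept on log2(TPM + 1) (1.61, adjusted p = 0.032). For IRX5 it was 0.66 (SE 0.26, adjusted p = 0.038), a call lost in 7 of the 18 fits that left out 1 library, under DESeq2 (0.64, adjusted p = 0.056) and with a replicate block (0.63, adjusted p = 0.055). The 7 libraries were untreated day 9 libraries 1 and 2, CHIR99021 and BMP4 libraries 2 and 3, RA-only day 9 library 3, and libraries 1 and 2 of RA with CHIR99021 and BMP4, with values of 0.46 to 0.64. IRX3 was not called (0.24, SE 0.36, adjusted p = 0.59), and without untreated day 9 library 1 the value was -1.12 (adjusted p = 0.053). The untreated group enters this interaction and is the only group in it that differs in read kind, so read kind does not cancel. With read kind as a covariate 0 of the 4 genes were called, which cannot be read as a result about these genes in particular. The value of IRX2 was 3.14 (adjusted p = 0.48), that of IRX5 was 0.62 (adjusted p = 0.9) and that of IRX1 was -1.18 (adjusted p = 0.91).

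RA lowered 3 of the 4 genes at day 6, where 48.7% of tested genes were called, 25.3% higher and 23.4% lower. IRX1 was 6.13-fold lower (log2 change -2.62, SE 0.36, adjusted p = 5.3e-06), IRX5 4.16-fold lower (-2.06, SE 0.16, adjusted p = 2.7e-10) and IRX2 1.79-fold lower (-0.84, SE 0.18, adjusted p = 0.00098), while IRX3 was not called (-0.23, SE 0.21, adjusted p = 0.37). With limma the call of IRX2 was lost on log2(TPM + 0.1) (-0.64, adjusted p = 0.081) and kept on log2(TPM + 1) (-0.62, adjusted p = 0.037). With read kind as a covariate, which nearly coincides with the treatment here too, 0 of 4 were called. That loss cannot be read as a result about these genes in particular. IRX5 then had a value of -2.02 (adjusted p = 0.57), IRX2 of -0.15 (adjusted p = 0.99) and IRX1 of 0.53 (adjusted p = 0.96). Leaving out the untreated day 6 libraries 1 and 3 together, the 2 of mixed read kind, gave -2.93 for IRX1, -2.14 for IRX5 and -0.99 for IRX2, all still called. The 8 surface and placodal ectoderm genes summed to 33.7 to 39.2 CPM after RA at day 6 and 134 to 154 CPM untreated. Of the 5 tested ones 4 fell and 0 rose, while 6 of 8 endoderm markers rose and 0 fell. The part of these marker lists in the Iroquois changes was not tested.

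RA alone gave another pattern at day 9, where 65.1% of tested genes were called, 32.5% higher and 32.5% lower: both IRXA genes were lower and IRX3 was higher than in untreated endoderm. IRX1 was 14.6-fold lower (log2 change -3.87, SE 0.41, adjusted p = 8.5e-08) and IRX2 7.88-fold lower (-2.98, SE 0.26, adjusted p = 1.2e-08). Without RA-only library 3 the change in IRX1 was -3.23. IRX3 was 2.01-fold higher (1.01, SE 0.32, adjusted p = 0.0095), or 2.37 on the log2 scale without untreated library 1. IRX5 was not called (0.36, SE 0.23, adjusted p = 0.18), although the limma test called it on log2(TPM + 0.1) (0.74, adjusted p = 0.0034) and on log2(TPM + 1) (0.52, adjusted p = 0.0048), and the main test did so without RA-only library 3 (0.56, adjusted p = 0.046). With read kind as a covariate, which nearly coincides with the treatment here too, 0 of 4 were called. This loss cannot be read as a result about these genes in particular. The fitted values were -0.38 for IRX1, -2.21 for IRX2 and 3.50 for IRX3. The summed cardiac markers in this comparison were 3394 to 4702 CPM after RA alone and 78.6 to 142 CPM untreated. The 8 surface and placodal ectoderm genes summed to 12.1 to 27.3 CPM after RA alone and 138 to 147 CPM untreated. All 5 tested ones fell, while 7 of 8 endoderm markers rose and 0 fell. The part of any of these marker lists in the Iroquois changes was not tested.

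The RA response at day 9 minus that at day 6 was called in 3 of the 4 genes, where 50.9% of tested genes were called, 24.9% with a positive and 26% with a negative value. It was 2.42 for IRX5 (SE 0.29, adjusted p = 2.6e-07) and 1.24 for IRX3 (SE 0.38, adjusted p = 0.01), and -2.14 for IRX2 (SE 0.33, adjusted p = 3e-05). The response was thus higher at day 9 for both IRXB genes and lower at day 9 for IRX2 of the IRXA cluster. IRX1 was not called (-1.25, SE 0.65, adjusted p = 0.12), but was without RA day 6 library 1 (-1.63, adjusted p = 0.032). The value of IRX3 without untreated day 9 library 1 was 2.61. Both arms of this interaction hold a treated and an untreated group, so read kind largely cancels and the covariate could change little. The 3 calls were also made with read kind as a covariate (2.42, 1.48 and -2.06 for IRX5, IRX3 and IRX2).

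In untreated endoderm, day 9 against day 6, 3 of the 4 genes fell, where 46.9% of tested genes were called, 24% higher and 22.9% lower. IRX5 was 8.48-fold lower at day 9 (log2 change -3.08, SE 0.18, adjusted p = 3.4e-12) and IRX3 6.37-fold lower (-2.67, SE 0.26, adjusted p = 6.6e-08). IRX2 was 1.56-fold lower (-0.64, SE 0.18, adjusted p = 0.0077), and IRX1 was not called (0.19, SE 0.26, adjusted p = 0.59). Untreated day 9 library 1 bears on these values, since without it the change was -4.04 for IRX3 and IRX2 was not called (-0.47, adjusted p = 0.061).

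After RA, day 9 against day 6, again 3 of 4 fell, where 58.8% of tested genes were called, 28.5% higher and 30.3% lower. Here IRX2 fell most, 6.87-fold (log2 change -2.78, SE 0.26, adjusted p = 4e-08), IRX3 also fell (-1.43, SE 0.25, adjusted p = 4.3e-05) and IRX5 1.59-fold lower (-0.67, SE 0.21, adjusted p = 0.0083). The call of IRX5 was lost without RA-only day 9 library 3 (-0.46, adjusted p = 0.08). IRX1 was not called (-1.06, SE 0.60, adjusted p = 0.14), but was without RA day 6 library 1 (-1.44, adjusted p = 0.034). The other course from the same RA-treated day 6 endoderm, through CHIR99021 and BMP4, raised all 4: by day 9 IRX1 was 7.95-fold higher (adjusted p = 2.9e-07), IRX3 6.76-fold higher (adjusted p = 4.9e-11), IRX5 5.75-fold higher (adjusted p = 3.8e-12) and IRX2 2.66-fold higher (adjusted p = 2.5e-06), where 51.8% of tested genes were called and 25.1% were called higher.

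Levels of different genes were compared on deposited TPM, which is scaled per gene length. After RA with CHIR99021 and BMP4 the 6 genes together had 208 ± 14.4 TPM, with IRX3 at 82.9 TPM, IRX2 at 72.2, IRX5 at 26.3 and IRX1 at 26.1 on average. After RA alone at day 9 the total was 13.6 ± 4.53 TPM, and after CHIR99021 and BMP4 without RA it was 154 ± 15.2 TPM, led by IRX1 at 73.3 TPM. Untreated day 9 endoderm had 47.0 ± 3.63 TPM, made up mostly of IRX2 at 25.5 and IRX1 at 18.2 TPM. The day 6 totals were 50.3 ± 8.17 TPM after RA and 93.8 ± 6.31 TPM untreated, and in both IRX2 had the highest level, at 28.6 and 43.9 TPM.

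The IRXB genes held 52.6%, 52.5% and 53.1% of the summed TPM in the libraries given RA with CHIR99021 and BMP4, against 29.1%, 31.6% and 27.8% in those given CHIR99021 and BMP4 without RA. The groups did not overlap, and the sums behind the shares were 98.3 ± 7.42 TPM for IRXA and 110 ± 7.0 for IRXB with RA, against 109 ± 13.5 for IRXA and 45.2 ± 1.91 for IRXB without. The IRXA sums of the libraries overlapped, while their make-up differed: IRX1 was 12.5% ± 1.12 of all Iroquois TPM with RA and 47.6% ± 1.12 without, and IRX2 was 34.7% ± 0.892 with RA and 22.8% ± 0.874 without. In untreated day 9 endoderm the IRXB share was lowest, at 10.2%, 7.07% and 3.27%. RA alone gave 52.6%, 52.3% and 78.3% at day 9, on the low total given above, and the day 6 shares were 36.8%, 37.6% and 35.0% after RA and 33.5%, 32.4% and 33.4% untreated.

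**Figure D3:**
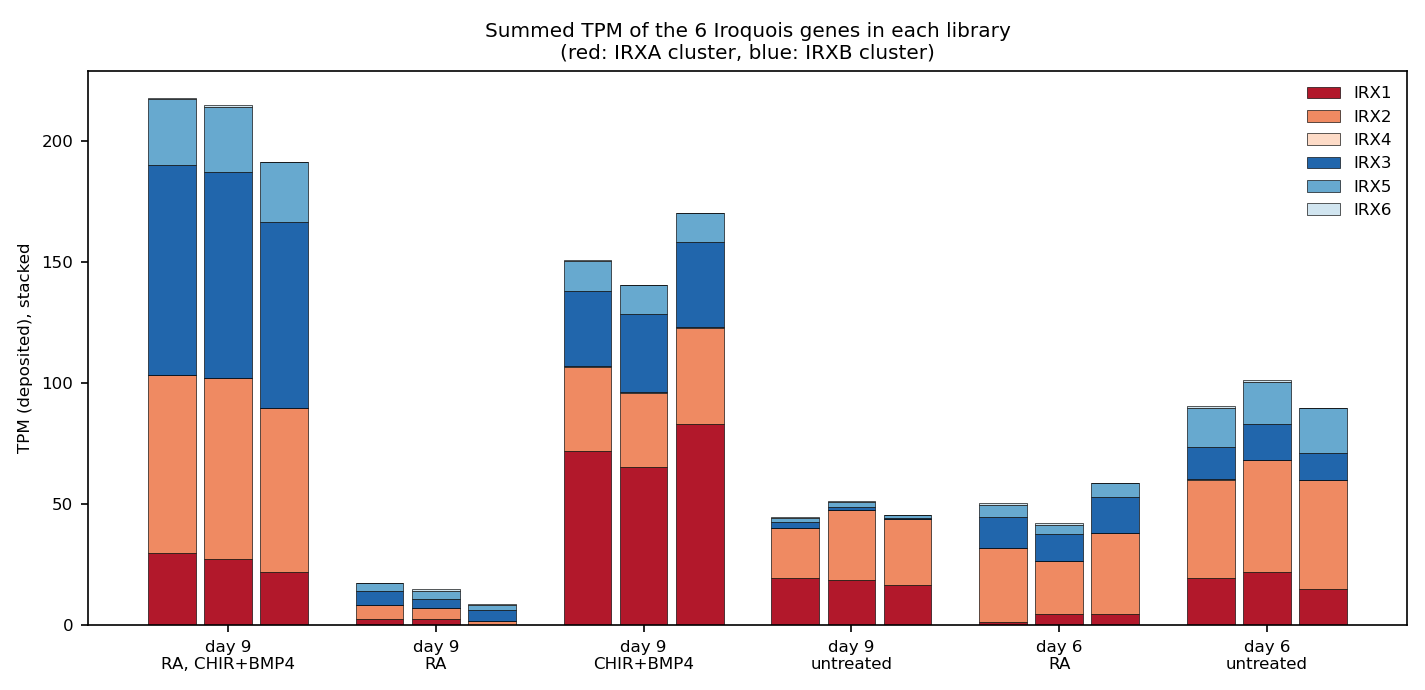
Deposited TPM of the 6 Iroquois genes stacked for each of 18 libraries (linear axis from 0), IRXA genes in reds and IRXB genes in blues. The IRXB part is 52.5% to 53.1% of the stack after RA with CHIR99021 and BMP4, 27.8% to 31.6% after CHIR99021 and BMP4 without RA and 3.27% to 10.2% in untreated day 9 endoderm.

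Across the 18 libraries the members were most alike in pairs by cluster: Pearson's r of log2 CPM was 0.88 for IRX3 with IRX5 and 0.76 for IRX1 with IRX2. Between clusters it was 0.67 for IRX2 with IRX5, 0.55 for IRX1 with IRX5, 0.50 for IRX2 with IRX3 and 0.38 for IRX1 with IRX3. These values describe 18 libraries that share 6 group means and the scaling of each library, and IRX3 and IRX5 also share the stretch of identical sequence given above.

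Among 12430 genes at 5 CPM or more in a group, ranked without pseudogenes, antisense, LOC and clone names and the Iroquois genes themselves, those most like IRX1 were SHMT1 (r = 0.948), which encodes a folate enzyme, COL2A1 (0.947), the gene of the type II collagen chain, ZDHHC15 (0.940), NLGN2 (0.934) and SOX12 (0.929). COL2A1, as IRX1, was highest after CHIR99021 and BMP4 without RA, at 3405 ± 199 CPM, against 2529 ± 115 CPM after RA with CHIR99021 and BMP4 and 1105 ± 148 CPM after RA alone at day 9. Those most like IRX2 were BRCA1 (0.975), ZBTB12 (0.971), SHISAL2B (0.961), POLA1 (0.960) and CDC7 (0.959), of which BRCA1, POLA1 and CDC7 act in DNA repair and replication. CDC7 had 82.9 ± 1.10 CPM after RA with CHIR99021 and BMP4 and 19.0 ± 1.35 CPM after RA alone at day 9, the same ends of the order as IRX2.

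The genes most like IRX3 were FGF12 (r = 0.950), GGH (0.931), THOC5 (0.927), TCF3 (0.919) and PPP1R8 (0.917), and those most like IRX5 were KPNB1 (0.945), ING3 (0.915), WNK3 (0.911), CPT1C (0.908) and SP5 (0.903). The left-out LOC101927480, a neighbour of IRX5, was more like IRX5 (0.936) than ING3 was. FGF12 had 14.6 ± 2.13 CPM after RA with CHIR99021 and BMP4 and 4.31 ± 0.625 CPM in untreated day 9 endoderm, a narrower range than that of IRX3. SP5, a direct Wnt target, had 13.1 ± 1.11 CPM after RA with CHIR99021 and BMP4, against 0.230 ± 0.165 CPM after RA alone at day 9. Each r is over the 18 libraries, with the same shared group means.

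The 250 bases before the annotated start are shown for IRX1 and IRX2, the genes of 1 cluster that RA before CHIR99021 and BMP4 moved in opposite directions (RefSeq, GRCh38.p14, 5′ to 3′ on the strand of the gene). IRX1 is chr5:3595582-3595831 on the plus strand and IRX2 is chr5:2751678-2751927 on the minus strand. Capitals mark a match to the TCF/LEF motif of Wnt signalling, searched as CTTTGAT on both strands. In the table used, 3 of the 6 genes had an entry (IRX1, IRX2 and IRX4), and IRX3, IRX5 and IRX6 did not.
IRX1: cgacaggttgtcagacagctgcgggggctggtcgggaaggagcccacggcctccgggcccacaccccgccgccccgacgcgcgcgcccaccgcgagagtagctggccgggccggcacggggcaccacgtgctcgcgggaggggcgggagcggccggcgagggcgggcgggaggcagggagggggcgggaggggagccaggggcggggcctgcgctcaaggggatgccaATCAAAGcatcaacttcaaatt
IRX2: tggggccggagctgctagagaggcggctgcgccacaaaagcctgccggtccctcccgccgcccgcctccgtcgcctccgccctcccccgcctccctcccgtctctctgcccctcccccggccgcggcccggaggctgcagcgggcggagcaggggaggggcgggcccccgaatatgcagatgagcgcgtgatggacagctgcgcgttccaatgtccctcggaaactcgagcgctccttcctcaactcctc

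In the full windows, which run from 250 bases before to 50 after the start, IRX1 held 1 match to CTTTGAT, read on the minus strand, with its first printed base 22 bases before the start. Of 35116 such windows of all genes, 2.62% held that motif. The IRX2 and IRX4 windows held no match to it, and none of the 3 genes' windows matched 5 other motifs, namely the retinoic acid receptor hexamer AGGTCA (in 13.8% of all windows), its direct repeat with a spacer of 5 bases (0.0057%), the GATA motif AGATAA (10.3%), the fly Iroquois motif ACANNTGT (5.62%) and TATAAA (11.5%), each on both strands, with the repeat counted in both of the first 2. Both windows were rich in G and C, at 76.0% for IRX1 and 73.3% for IRX2 against a median of 58.7%, and held 38 and 34 CG pairs against a median of 14. A match to letters describes the window and says nothing of binding.

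Genes around the clusters were looked at for the same pattern. Over all tested genes, 64.4% were called for CHIR99021 and BMP4 after RA and 43.3% for RA before CHIR99021 and BMP4. Of 6 tested neighbours of IRXA, 1 rose and 3 fell with CHIR99021 and BMP4 after RA, and 0 of 6 were called for RA before CHIR99021 and BMP4, where IRX1 and IRX2 were both called. ADAMTS16, which encodes a secreted metalloprotease, had 9.66 ± 2.03 CPM after RA with CHIR99021 and BMP4, against 285 ± 17.3 CPM after RA alone at day 9 (log2 change -4.87, adjusted p = 2.6e-12), and ICE1, a gene of small nuclear RNA transcription, also fell (-2.38, adjusted p = 2.1e-15). LPCAT1 rose (1.16, adjusted p = 1.4e-11), NDUFS6 fell (-0.69, adjusted p = 1.2e-05), and MRPL36 and MED10 were not called (-0.13 and -0.12).

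Of 8 tested neighbours of IRXB, 3 rose and 4 fell with CHIR99021 and BMP4 after RA, with values of -0.60 to 0.76 on the log2 scale apart from SLC6A2, the noradrenaline transporter gene, at -2.89. For RA before CHIR99021 and BMP4, 2 of the 8 rose (LPCAT2 0.57, MMP2 0.46) and 2 fell (AKTIP -0.29, FTO -0.27), each by less than the Iroquois genes of the cluster. The shares called over all tested genes were again 64.4% for the first comparison and 43.3% for the second. FTO, an RNA demethylase gene whose end lies 169 kb from IRX3, had 43.0 ± 0.977 CPM after RA with CHIR99021 and BMP4 and 49.3 ± 0.368 CPM after RA alone at day 9. It had 51.8 ± 2.02 CPM after CHIR99021 and BMP4 without RA and 55.5 ± 0.505 CPM untreated at day 9.

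One transcript between IRX3 and IRX5 stood out and was chosen after its values were seen: LOC101927480 (chr16:54847251-54848233), 82.6 kb from IRX5. It lies inside the span of CRNDE in GENCODE 29, a long non-coding RNA gene at chr16:54845189-54929189. That span ends close to the IRX5 start at 54930865, so the distance of 82.6 kb does not hold for CRNDE. Of the bases of LOC101927480, 42.3% are in CRNDE exons, so which transcript its reads came from is uncertain. It had 312, 324 and 287 CPM after RA with CHIR99021 and BMP4, against 51.3, 54.4 and 40.0 CPM after RA alone at day 9. It had 121, 155 and 105 CPM after CHIR99021 and BMP4 without RA, against 51.0, 72.2 and 43.5 CPM in untreated day 9 endoderm. In both pairs the groups did not overlap, and the order of the 4 means was led by the same group as for IRX3 and IRX5. The log2 change was 2.67 for CHIR99021 and BMP4 after RA (adjusted p = 9.1e-09) and 1.28 for RA before CHIR99021 and BMP4 (adjusted p = 2.8e-05). Over the 18 libraries its r was 0.936 with IRX5, the second highest of 15530 genes, 0.868 with IRX3, 0.758 with IRX2 and 0.499 with IRX1.

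The other genes of the TALE class did not move as a group. Of 11 tested, 3 rose and 5 fell with CHIR99021 and BMP4 after RA (median log2 change -0.16, against 0.02 over all genes), and 2 rose and 5 fell for RA before CHIR99021 and BMP4 (0.04, against -0.01). These counts stand beside 64.4% and 43.3% of all tested genes called in the 2 comparisons. MEIS1, a partner of HOX proteins, fell to 50.8 CPM after RA with CHIR99021 and BMP4, against 193 CPM after RA alone at day 9 (-1.93, adjusted p = 2.7e-10). PBX3 fell in both comparisons (-1.62, adjusted p = 7.7e-09, and -1.84, adjusted p = 3.5e-09). PBX4 rose in the first (1.19, adjusted p = 0.00025) and TGIF1, a repressor of TGF-beta signalling, in the second (0.69, adjusted p = 2.6e-06).

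Among 14 early lung epithelium transcription factors, 4 rose and 7 fell with CHIR99021 and BMP4 after RA, and 5 rose and 3 fell for RA before CHIR99021 and BMP4. In these comparisons 64.4% and 43.3% of all tested genes were called. NKX2-1, the first marker of the lung and thyroid domain, had 79.3 ± 8.66 CPM after RA with CHIR99021 and BMP4, against 10.7 ± 2.58 CPM after CHIR99021 and BMP4 without RA (log2 change 2.93, adjusted p = 8.3e-14). It had 0.177 ± 0.163 CPM after RA alone at day 9 and 1.15 ± 0.345 CPM in untreated day 9 endoderm, so NKX2-1 was highest in the group in which IRX2, IRX3 and IRX5 were highest. SOX2, a factor of the anterior foregut and airway, rose for RA before CHIR99021 and BMP4 (2.72, adjusted p = 3.3e-05), as did FOXP1 (2.21, adjusted p = 9.9e-13). ID2, also a BMP target, fell (-1.51, adjusted p = 4.2e-11).

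Signalling targets were set beside 64.4% of all tested genes called for CHIR99021 and BMP4 after RA and 43.3% for RA before CHIR99021 and BMP4. Of 10 Wnt feedback targets, 7 rose and 0 fell with CHIR99021 and BMP4 after RA, among them SP5 (5.70, adjusted p = 1.1e-06), LGR5 (4.24, adjusted p = 1e-08) and AXIN2 (2.33, adjusted p = 2e-14). Of 12 BMP targets, 1 rose and 9 fell in that comparison, and 0 rose and 11 fell for RA before CHIR99021 and BMP4, with BAMBI at -2.25 (adjusted p = 3.7e-06) and MSX1 at -2.62 (adjusted p = 1.2e-08). The IRX1 fall for RA before CHIR99021 and BMP4 had the direction of the BMP targets, and the rises of IRX2, IRX3 and IRX5 had the opposite one. With CHIR99021 and BMP4 after RA, IRX1 instead rose (4.05) while most BMP targets fell, and IRX2, IRX3 and IRX5 rose too. A link between the BMP targets and the Iroquois genes was not tested. Of 13 RA targets, 11 rose and 2 fell with RA at day 6, the comparison in which IRX1, IRX2 and IRX5 fell. There 25.3% of all tested genes were called higher and 23.4% lower.

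Neural domain factors, which Iroquois genes border in the neural tube, were scarce: of 13, 6 were tested, and NKX2-2 had 0.0619 CPM and PAX6 0.0335 CPM on average after RA with CHIR99021 and BMP4. With CHIR99021 and BMP4 after RA, where 64.4% of all tested genes were called, 2 of the 6 rose and 1 fell. For RA before CHIR99021 and BMP4, where 43.3% were called, 0 rose and 2 fell, SIX3 (-5.11, adjusted p = 3.5e-11) and SOX3 (-3.33, adjusted p = 3.4e-08). The 8 neural ectoderm markers summed to 6.31 to 7.30 CPM after RA with CHIR99021 and BMP4, with SOX1, OLIG2 and NEUROG2 at 0 counts. Of 8 genes placed downstream of Iroquois factors in studies of the mouse and chick heart, 7 were tested, and 1 rose and 6 fell with CHIR99021 and BMP4 after RA, the comparison in which IRX1, IRX2, IRX3 and IRX5 rose. MYH6, an atrial myosin gene, fell by 9.80 on the log2 scale (adjusted p = 3.7e-11) and BMP10 fell by 7.89 (adjusted p = 1.2e-08). MYH6 and MYH7 (-7.27, adjusted p = 1.1e-12) are also in the cardiac muscle marker list. KCND2, a potassium channel gene, was the 1 that rose (1.04, adjusted p = 0.007) and was named after its values were seen. It had 2.27 ± 0.827 CPM after RA with CHIR99021 and BMP4 and 1.22 ± 0.447 CPM after RA alone. Both levels are below the 5 CPM used to choose called genes from the lists. For RA before CHIR99021 and BMP4, where the cardiac markers were low on both sides, 1 of the 7 rose (CDH2, 1.34, adjusted p = 1e-08) and 1 fell (GJA1, -0.75, adjusted p = 0.0021).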

How the data were processed

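Bulk RNA-seq was measured in 18 libraries, 3 in each of 6 groups taken from the labels. RNA was made with Nucleospin columns and libraries with the TruSeq stranded mRNA kit, per the labels' protocols. The authors deposited raw read counts per gene and TPM values. STAR 2.7.9 and GRCh38 are named in the submitters' processing notes; the sources used here do not give the read counter, its annotation or its strand setting. The 36 rows without a symbol held 0.00102% of counts and were left out. Counts were tested in R 4.3.3 with edgeR 4.0.16 (filterByExpr with a minimum count of 10, TMM factors, robust quasi-likelihood fit, 1 mean per group over all 18 libraries, Benjamini-Hochberg adjustment over 15531 genes), in 7 comparisons, 2 interactions and 15 pairs of groups. The procedure was tested on simulated data. IRX4 and IRX6 had too few counts and got exact two-sided permutation tests. Levels of different genes were compared on TPM. Alternatives were DESeq2 1.42.0, limma 3.58.1 on log2 TPM, other scaling and filters, a replicate block, read kind as a covariate and each library left out. Same-numbered libraries were not paired by the labels, and their deviations from the group means had correlations of -0.076 to 0.228.

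The genes described, besides the 6 members and the tested neighbours, are the 5 most correlated with each well-expressed member (pseudogenes, antisense, LOC and clone names not ranked) and, in each list, up to 4 called genes with the largest change and at least 5 CPM in the higher group. Members and lists were chosen with earlier results of these data known. Replicates of a group differed by more than sampling noise (chi-square per gene 2.16 to 6.32), so none was counted as 1 library with another. Library totals of 5.79 M to 25.4 M counts limit the precision for genes below about 1 CPM.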

Additional observations from a re-analysis of the deposited data

Results flagged for a closer look

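The change in IRX1, IRX2 and IRX5 with CHIR99021 and BMP4 differed between RA-treated and RA-untreated endoderm by edgeR's interaction test. The difference of responses on the log2 scale was 3.92 for IRX2, 2.31 for IRX1 and 0.66 for IRX5. IRX2 had a change of 4.19 after RA and 0.28 without RA, IRX1 of 4.05 and 1.74, and IRX5 of 3.19 and 2.53. The IRX5 call was lost under DESeq2 (adjusted p = 0.056), with a replicate block (adjusted p = 0.055 in edgeR) and in 7 of the 18 fits that left out 1 library. The IRX1 call was lost with limma on log2(TPM + 0.1) (adjusted p = 0.086) and kept on log2(TPM + 1) (adjusted p = 0.032). With read kind as a covariate in edgeR none of these calls remained. The fitted values were then 3.14 for IRX2 (adjusted p = 0.48), -1.18 for IRX1 (adjusted p = 0.91) and 0.62 for IRX5 (adjusted p = 0.9).

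The change with RA differed between day 9 and day 6 for IRX2, IRX3 and IRX5 by the same test. The difference, day 9 minus day 6, was -2.14 for IRX2, 1.24 for IRX3 and 2.42 for IRX5. IRX2 had a change of -2.98 at day 9 and -0.84 at day 6, IRX3 of 1.01 and -0.23, and IRX5 of 0.36 and -2.06. Untreated libraries enter both sets of tests and differ from the treated ones in read kind. The calls of the interaction with day were also made with read kind as a covariate, with values of -2.06 for IRX2, 1.48 for IRX3 and 2.42 for IRX5. Read kind largely cancels in that interaction, since each arm sets a treated group against an untreated one. It does not cancel in the interaction with CHIR99021 and BMP4. The outcomes with the covariate therefore do not show which set of calls is firmer.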

How the results depend on the processing

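With 4 genes in 9 tests, all 36 results kept their call and direction under RLE factors, upper quartile factors, no filter on low counts and a minimum count of 30, as did the 35 that fits of only the groups compared could give. Read kind as a covariate nearly coincides with treatment: it left 0 of 4 genes called for RA at day 6, RA at day 9, CHIR99021 and BMP4 without RA, and the interaction of RA with CHIR99021 and BMP4, and turned IRX1 to 0.53 for RA at day 6 and to -1.18 in that interaction. Other fitted values kept their direction although their calls were lost, with IRX5 at -2.02 for RA at day 6 and 2.57 for CHIR99021 and BMP4 without RA, IRX2 at -2.21 for RA at day 9, and IRX2 at 3.14 in that interaction. The limma test on log2(TPM + 0.1) called 1 gene in that interaction and lost IRX1 for CHIR99021 and BMP4 without RA (2.00, adjusted p = 0.096). On log2(TPM + 1), 33 of the 36 results were the same and 0 lost their call. With the replicate number as a block, 35 of 36 results were unchanged and IRX5 lost its interaction with CHIR99021 and BMP4 (0.63). Replicate numbers do not pair the libraries (correlations of deviations -0.076 to 0.228), and 8 of 18 libraries correlated best with their own number. Leaving out each library in turn gave 4 to 4 genes called for CHIR99021 and BMP4 after RA and for RA before them, 3 to 3 for CHIR99021 and BMP4 without RA and for RA at day 6, 3 to 4 for RA at day 9 and for the interaction of RA with day, 2 to 3 for the interaction of RA with CHIR99021 and BMP4 and for untreated day 9 against day 6, and 2 to 4 for RA-treated day 9 against day 6. Depth limits IRX4 and IRX6, which had at most 12 counts in a group.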

Other observations

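The other marker lists were read in the same libraries. The 6 endothelial genes summed to 48.0 to 61.9 CPM after RA with CHIR99021 and BMP4, 55.1 to 69.0 CPM after RA alone at day 9 and 78.1 to 122 CPM after CHIR99021 and BMP4 without RA. Of the 6, 0 were called for CHIR99021 and BMP4 after RA, where 64.4% of all tested genes were called. Of the 6 pluripotency genes 5 were in the table. They summed to 1185 to 1311 CPM after RA with CHIR99021 and BMP4, where POU5F1 had no count. The sum was 1001 to 1077 CPM after RA alone at day 9 and 2053 to 2341 CPM in untreated day 9 endoderm. LIN28A made up nearly all of each sum, with means of 1222, 1018 and 2189 CPM in these groups, in the same order. NANOG had 0.161, 0.183 and 0.494 CPM there. POU5F1 had 0.232 CPM after RA alone at day 9 and 0.537 CPM in untreated day 9 endoderm. The sums thus describe LIN28A rather than the list as a whole.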
